A study of Mus musculus with 44 samples.

Results

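The comparison described here sets LPS-activated mouse B cells exposed to dioxin for 36 h against the same cells given the vehicle for 36 h. The series follows CH12.LX, a mouse B cell lymphoma line that makes IgM and can turn into antibody-secreting cells, over a time course. Cells of both groups were plated at 100000 cells/ml and activated with lipopolysaccharide (LPS) from Salmonella typhosa. One group then received the dioxin TCDD (2,3,7,8-tetrachlorodibenzo-p-dioxin) at 10 nM, and the other received the vehicle, dimethyl sulfoxide (DMSO), at 0.01%. The members are the 8 arrays labelled 36 h, 4 of TCDD and 4 of DMSO, of 44 arrays in the series. The other arrays hold the same treatments at 8, 12, 24 and 48 h and 4 cultures at 0 h labelled untreated. The 4 replicates of each group were treated and harvested on separate days, and a replicate number marks 1 day, so a TCDD and a DMSO culture of the same number form a same-day pair. Only 1 cell line was used, so the replicates are repeat cultures of that line and the p-values measure the spread between days of culture.

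TCDD binds the aryl hydrocarbon receptor (AhR), a ligand-activated transcription factor that pairs with Arnt in the nucleus and binds dioxin response elements near genes of xenobiotic metabolism. LPS, acting through Toll-like receptors, drives B cells to divide and to become plasma cells. In that change Prdm1, Irf4 and Xbp1 promote the secretory state, and Pax5, Bach2, Bcl6 and Spib hold the B cell state. CH12.LX cells have long served to study how TCDD lowers the IgM response to LPS.

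All levels are log2 of the normalized array signal plus 16, so a gene without signal sits near 4, and every change is TCDD minus DMSO on that scale, which understates the change of dim genes. A gene is said to have risen or fallen where limma's adjusted p over 11970 tested genes was below 0.05. The errors beside changes are standard errors. The 8 arrays were alike in quality: the median signal was between 53 and 57.7 on 7 of them and 76.4 on DMSO replicate 3, and each array's median correlation with the others of its group was 0.973 to 0.979. The log2 ratio of the 3' to the 5' probe set of Tfrc, a sign of RNA integrity, ran from 0.93 to 1.41. The labelled cell type fitted its markers, with 8 of 9 B cell markers that have a probe set lying above the limit for dim genes. Of the other marker lists, 3 of 8 T cell, 5 of 10 macrophage or monocyte, 1 of 7 NK cell, 1 of 5 erythroid and 4 of 10 fibroblast or epithelial markers lay above it. These are bulk samples, in which fewer cells of a type and less RNA per cell cannot be told apart.

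At 36 h, 705 genes (5.89% of those tested) differed between TCDD and DMSO, of which 418 (3.49%) were higher with TCDD and 287 (2.4%) were lower. The rises were larger than the falls: 127 genes rose and 22 fell by at least 2-fold, and 25 rose and 0 fell by at least 4-fold. The median change was 0.72 among the genes that rose and −0.48 among those that fell, beside −0.01 over all tested genes. The sign was the same in all 4 same-day pairs for 693 of the 705 genes, and for 627 of them the 4 TCDD values did not overlap the 4 DMSO values, a separation that 12.4% of all tested genes showed. The 705 genes were picked by a test on the same arrays, so neither count is separate support for the calls. With the day as a block in the fit the count was 1307 genes, 725 higher and 582 lower, and these included all 705. Leaving out a whole day lowered the count to 469 without replicate 1, 282 without replicate 2, 385 without replicate 3 and 483 without replicate 4, and fitting only the 8 arrays gave 437. The plot sets the change against the mean level of both groups, which a rise itself increases. Several of the largest rises, such as Cyp1a1 (5.95) and Cyp1b1 (5.00), began from DMSO means below 6.21, the limit for dim genes. Others, such as Asb2 and Ptgs2, began above it.

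**Figure D1:**
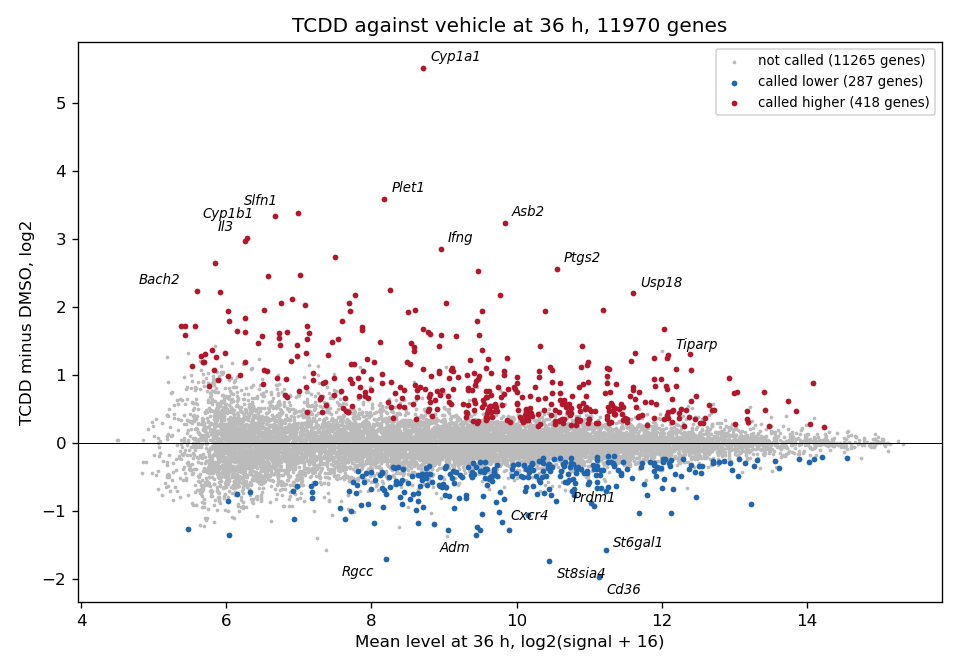
Each point is 1 of 11970 genes; the x axis is the mean level of the 8 arrays at 36 h as log2(signal + 16) and the y axis is TCDD minus DMSO in log2. The 418 genes that rose (red) reach 5.51 for Cyp1a1, whereas the 287 that fell (blue) reach −1.97 for Cd36; genes that did not pass the test are grey.

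Of the AhR target genes, Cyp1a1 had the largest rise of all tested genes. It encodes a cytochrome P450 that oxidizes aromatic hydrocarbons and is the classic reporter of AhR activity. Its level was 6.02, 6.43, 5.69 and 5.66 in DMSO replicates 1 to 4 and 11.55, 11.47, 11.35 and 11.47 in TCDD replicates 1 to 4, against a mean of 6.00 in untreated cells. The TCDD cultures lay close together and far above every DMSO culture, a rise of 5.51 ± 0.19 (adjusted p = 2.5e-22). The DMSO mean of 5.95 lies below the limit for dim genes, 6.21, so no fold is given; the rise was 4.70 to 5.92 over the alternative settings. Cyp1b1, a related P450, was 6.01, 4.63, 4.55 and 4.82 with DMSO and 8.66, 8.56, 8.19 and 7.92 with TCDD, a rise of 3.33 ± 0.34 (adjusted p = 1.6e-08). Its DMSO mean of 5.00 was also below that limit, and the rise ran from 2.01 to 4.33 over the alternative settings. DMSO replicate 1 stood above the other DMSO cultures for this gene, and the groups still did not overlap. The 2 feedback repressors of the receptor rose as well. Ahrr, which competes with AhR for Arnt, went from 6.33, 5.92, 6.39 and 5.67 to 8.17, 8.34, 8.03 and 7.88 (2.03 ± 0.20, adjusted p = 7.5e-09). Its DMSO mean of 6.08 was below the limit for dim genes, and the rise ran from 1.48 to 2.32 over the alternative settings. Tiparp, an ADP-ribosyltransferase that modifies AhR, went from 11.42, 11.41, 11.60 and 11.32 to 12.86, 12.75, 12.70 and 12.59 (1.29 ± 0.10, adjusted p = 7.0e-11).

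Of 12 genes on the AhR target list 7 could be tested, and 4 of the 7 rose and 0 fell, with a list median of 1.29. That is 57.1% of the tested members, beside 5.89% of all tested genes. Nqo1, a quinone reductase, was 7.03, 7.70, 8.04 and 7.73 with DMSO and 8.14, 7.87, 8.57 and 8.62 with TCDD. It was higher with TCDD on each day, but the groups overlapped and the difference of 0.67 ± 0.25 did not pass the test (adjusted p = 0.12; 7.0e-04 with the day as a block). Nfe2l2 (0.32) and Cyp2s1 (−0.35) did not pass, and Cyp1a2, Aldh3a1 and Lrat were too dim to be tested. The receptor complex itself showed no change that passed the test in any of 8 members. Ahr was at 9.66, 9.30, 9.41 and 9.24 with DMSO and 9.72, 9.45, 9.18 and 9.31 with TCDD, a difference of 0.01 ± 0.16, and both groups lay below the untreated mean of 11.83. Arnt was lower with TCDD on every day without passing the test (−0.34 ± 0.21, adjusted p = 0.47).

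The stretches of 250 bases before the RefSeq start (GRCm38.p6) of Cyp1a1, the largest rise, and of Ahrr, the promoter of this list with most matches, show the dioxin response element core, GCGTG on either strand, in capitals. Cyp1a1 lies at chr9:57697363-57697612 on the plus strand, and its core starts at position −54 from the gene's start. Ahrr lies at chr13:74292332-74292581 on the minus strand, with cores at −107, −82 and −27. Both are printed 5′ to 3′ on the gene's strand.
Cyp1a1: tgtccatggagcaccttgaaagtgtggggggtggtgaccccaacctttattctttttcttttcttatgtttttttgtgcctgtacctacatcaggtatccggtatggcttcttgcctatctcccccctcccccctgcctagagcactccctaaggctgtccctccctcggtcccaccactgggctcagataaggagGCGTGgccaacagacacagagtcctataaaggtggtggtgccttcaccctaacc
Ahrr: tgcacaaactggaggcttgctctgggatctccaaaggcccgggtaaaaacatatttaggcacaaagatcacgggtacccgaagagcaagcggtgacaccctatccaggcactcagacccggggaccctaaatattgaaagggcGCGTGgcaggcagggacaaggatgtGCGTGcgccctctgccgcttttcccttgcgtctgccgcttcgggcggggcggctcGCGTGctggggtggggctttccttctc
Cyp1b1 holds 1 core at −76 and Tiparp 1 at −170. The core is short and common: in windows of 300 bases, from 250 before to 50 after the start, it occurred in 48.8% of the promoters of tested genes, 42.5% of those of genes that rose and 52.4% of those of genes that fell. A match is a run of letters and no evidence of binding, and overlap with other motifs was not searched.

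**Figure D2:**
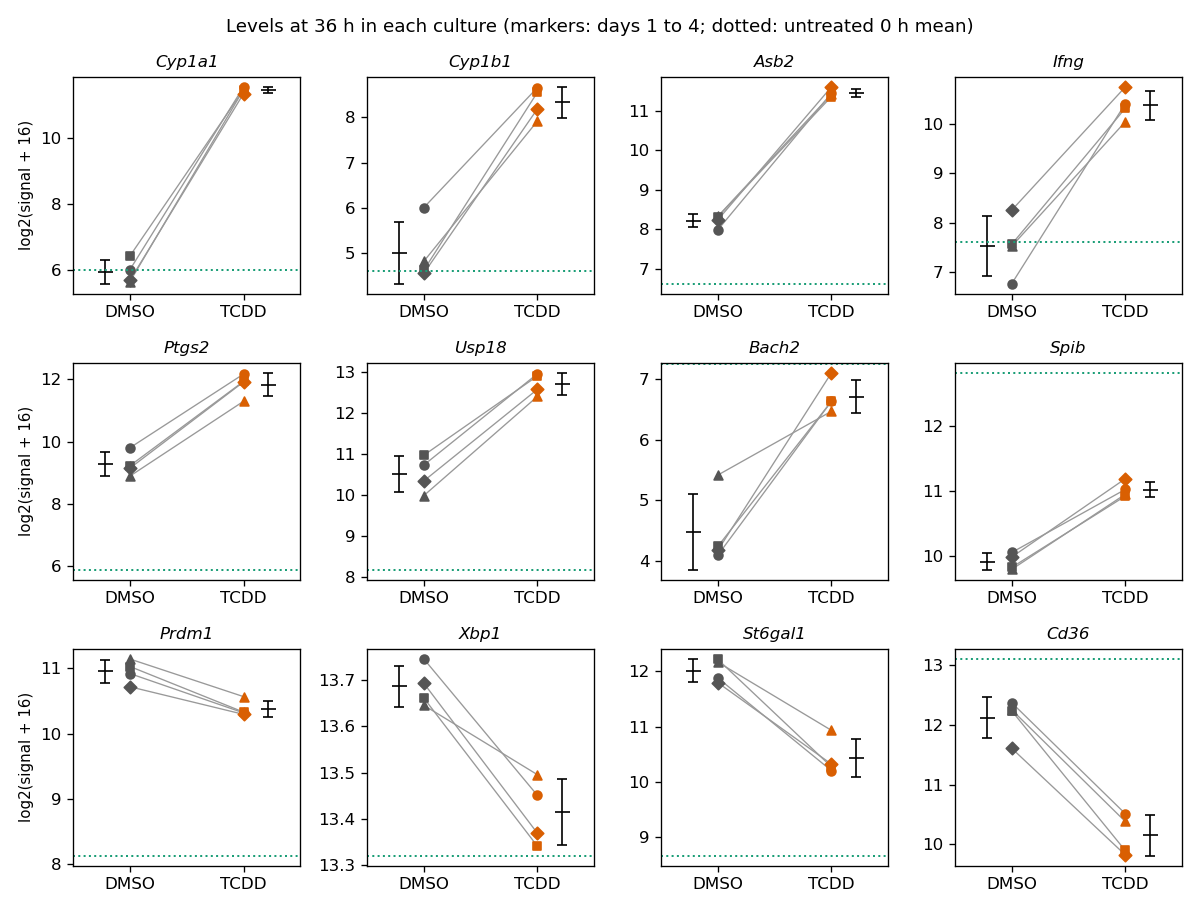
Level of 12 genes, as log2(signal + 16), in each DMSO and TCDD culture at 36 h; marker shapes are the 4 days, grey lines join same-day pairs, bars beside the points are mean ± SD (n = 4) and the dotted line is the untreated mean at 0 h. In each panel every pair moves the same way, up for the first 8 genes (Cyp1a1 to Spib) and down for Prdm1, Xbp1, St6gal1 and Cd36; the y axes differ in scale between panels, and Xbp1 spans a narrow range.

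The rises beyond the AhR targets were led by genes of unlike function. Plet1, a surface protein anchored through a lipid and first described in the placenta, was 5.95, 6.45, 6.49 and 6.64 with DMSO and 10.06, 10.28, 9.47 and 10.04 with TCDD (3.58 ± 0.30, adjusted p = 1.3e-10); of its other probe sets 1 gave 2.57 and 1 gave 0.49, which did not pass. Asb2, the substrate adaptor of a ubiquitin ligase, was 7.99, 8.32, 8.24 and 8.33 with DMSO and 11.44, 11.36, 11.60 and 11.41 with TCDD (3.23 ± 0.17, adjusted p = 1.1e-16). Neither gene's groups came near each other. Ptgs2, the inducible cyclooxygenase that starts prostaglandin synthesis, was 9.80, 9.23, 9.15 and 8.90 with DMSO and 12.17, 11.93, 11.92 and 11.29 with TCDD (2.56 ± 0.26, adjusted p = 1.6e-08), both far above the untreated 5.89. Ido1, which degrades tryptophan, rose by 2.73 ± 0.42 from levels of 5.99 to 6.29 with DMSO to 8.19 to 9.37 with TCDD (adjusted p = 2.5e-05), and TCDD replicate 4 was the lowest of its group. Myl10, a myosin light chain, rose by 2.97 ± 0.37 (adjusted p = 4.5e-07) from 4.29, 4.61, 4.40 and 5.81, near the limit of detection, to 7.50, 7.58, 8.17 and 7.73. Its rise ran from 1.77 to 4.29 over the alternative settings.

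Interferon-stimulated genes rose as a group at 36 h. Of 24 tested members of the interferon response list, chosen with earlier results of these data known like the other lists, 20 rose and 0 fell. That is 83.3%, beside 5.89% of all tested genes, and the list median was 1.28 beside −0.01 for all tested genes. Its mean level was 9.45, 9.58, 9.23 and 9.17 in DMSO replicates 1 to 4 and 10.87, 10.94, 10.56 and 10.49 in TCDD replicates 1 to 4, without overlap. Among the genes that inhibit viruses or damp the response, Oasl2, an oligoadenylate synthetase-like protein, was 8.62, 8.70, 7.80 and 7.73 with DMSO and 10.74, 11, 10.58 and 10.61 with TCDD (2.52 ± 0.32, adjusted p = 8.3e-07). Rsad2 (viperin) was 7.48, 7.24, 6.38 and 7.39 with DMSO and 9.51, 9.94, 9.05 and 8.99 with TCDD (2.25 ± 0.29, adjusted p = 1.1e-06). Usp18, which removes ISG15 from proteins and restrains the interferon receptor, was 10.73, 10.96, 10.34 and 9.98 with DMSO and 12.95, 12.89, 12.57 and 12.39 with TCDD (2.20 ± 0.28, adjusted p = 5.4e-07). For these 3 genes each day's TCDD culture lay above all 4 DMSO cultures. Cxcl10, a chemokine that draws T cells, rose by 2.05 ± 0.30 and Ifit3, which binds viral RNA with its relatives, by 1.96 ± 0.26. The transcription factors of the pathway were uneven: Irf7 rose by 1.32 ± 0.24 and Stat2 by 1.03 ± 0.19, and Irf9 differed by 0.22 ± 0.13 without passing the test (adjusted p = 0.45).

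The 4 members of the list that did not pass were Irf9, Oas2 (0.77), Oasl1 (0.93) and Rtp4 (1.35), and all 4 were higher with TCDD on each of the 4 days. Rtp4 was 11.32, 11.61, 11.25 and 11.14 with DMSO and 12.65, 12.83, 12.60 and 12.64 with TCDD, so its groups were far apart at 36 h although its adjusted p was 0.11 in a fit that takes the spread from all 11 groups; it passed with the day as a block (0.041). Leaving out 1 day left 15 to 18 of the 24 genes passing. Same-day differences of these genes and of the related GTPases and Schlafen genes are plotted by day.

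**Figure D3:**
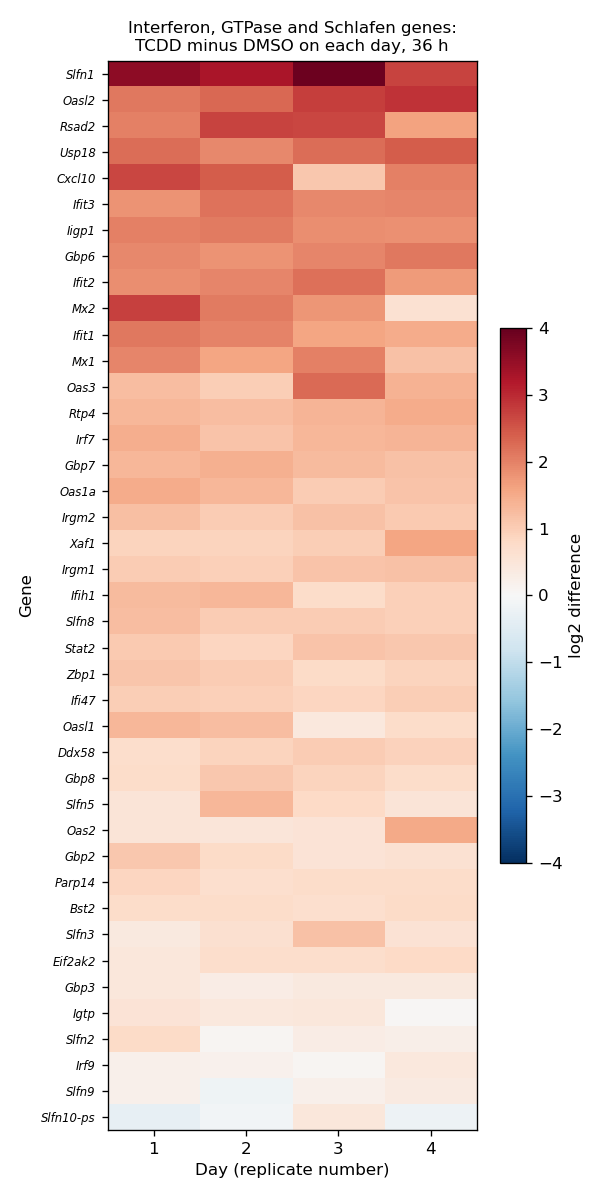
TCDD minus DMSO within each same-day pair at 36 h (columns, days 1 to 4) for the tested genes of the interferon response, interferon-inducible GTPase and Schlafen lists (rows, by mean change), in log2 from −4 (blue) to 4 (red). Slfn1 is at the top with 3.38 on average, from DMSO levels below the limit for dim genes. The 4 cells below 0 belong to Slfn10-ps (days 1, 2 and 4) and Slfn9 (day 2) at the bottom.

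Stretches before the starts of 3 raised interferon-stimulated genes, from each of the antiviral enzyme, RNA-binding and GTPase classes, are shown for the interferon-stimulated response element, written GAAA, 2 bases of any kind, GAAA on the gene's strand or TTTC, 2 bases, TTTC where it lies on the other strand, with matches in capitals (250 bases, RefSeq, GRCm38.p6, 5′ to 3′). Rsad2 lies at chr12:26456453-26456702 on the minus strand, with a match that starts at −120. Ifit3 lies at chr19:34583279-34583528 on the plus strand, with matches at −156 and −122. Gbp7 lies at chr3:142530086-142530335 on the plus strand, with 1 at −53.
Rsad2: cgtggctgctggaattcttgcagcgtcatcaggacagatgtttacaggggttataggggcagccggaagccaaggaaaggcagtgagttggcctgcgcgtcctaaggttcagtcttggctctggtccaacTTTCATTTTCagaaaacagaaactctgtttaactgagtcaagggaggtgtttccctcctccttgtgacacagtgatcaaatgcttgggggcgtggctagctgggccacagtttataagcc
Ifit3: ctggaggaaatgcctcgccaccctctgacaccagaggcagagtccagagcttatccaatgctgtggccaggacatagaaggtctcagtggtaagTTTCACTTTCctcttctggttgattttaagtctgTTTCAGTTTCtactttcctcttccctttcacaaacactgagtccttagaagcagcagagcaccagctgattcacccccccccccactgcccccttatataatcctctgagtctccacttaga
Gbp7: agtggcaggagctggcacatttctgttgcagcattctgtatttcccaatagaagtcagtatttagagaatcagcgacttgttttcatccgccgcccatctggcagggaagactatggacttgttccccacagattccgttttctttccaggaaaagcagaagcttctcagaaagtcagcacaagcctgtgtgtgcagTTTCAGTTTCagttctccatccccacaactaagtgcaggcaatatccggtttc
In windows of 300 bases the motif occurred in 3.07% of the promoters of all tested genes, 9.36% of those of genes that rose and 1.89% of those of genes that fell. It was in 11 of 19 promoters (57.9%) of the interferon response list and in 6 of 8 (75%) of the GTPase list. Promoters were at hand for 17 of the 24 tested interferon response genes, 7 of the 10 GTPases and 9717 of all 11970 tested genes. Oasl2, Ifit2, Irf7, Xaf1 and the GTPase Ifi47 also rose and have no match to these letters in their windows. Windows were not listed for every raised gene, and Usp18 and Gbp6 are among those without one.

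The interferon-inducible GTPases, which attack the vacuoles of intracellular microbes, had 10 tested members, of which 8 rose and 0 fell (median 1.01). That is 80%, beside 5.89% of all tested genes. Iigp1 was 10.35, 10.16, 10.18 and 10.17 with DMSO and 12.38, 12.25, 12.04 and 12.01 with TCDD (1.95 ± 0.21, adjusted p = 3.2e-08), and Gbp6 was 9.53, 9.59, 9.48 and 9.09 against 11.46, 11.37, 11.42 and 11.21 (1.94 ± 0.19, adjusted p = 5.7e-09). Gbp7 rose by 1.30 ± 0.19, Irgm2 by 1.10 ± 0.14 and Irgm1 by 1.08 ± 0.15, while Gbp3 (0.38) and Igtp (0.37) did not pass. The day-by-day groups of Iigp1 and Gbp6 were separated by more than the spread within either. Guanylate-binding proteins and Irgm genes are close relatives, and probe sets for one may pick up another. The Schlafen family, which regulates growth of lymphocytes, was split, and 3 of 7 tested members (42.9%) rose (median 0.70). Slfn1 was 5.32, 6.04, 4.52 and 5.33 with DMSO and 8.90, 9.32, 8.45 and 8.04 with TCDD (3.38 ± 0.40, adjusted p = 2.1e-07). Its DMSO levels lay below the limit for dim genes, and the rise ran from 1.84 to 4.14 over the alternative settings. Slfn8 rose by 1.06 ± 0.24 and Slfn3 by 0.70 ± 0.19; Slfn3 no longer passed without replicate 2 (0.71) or 3 (0.54), nor without single arrays DMSO 3 (0.59), DMSO 4 (0.66), TCDD 2 (0.62) and TCDD 3 (0.64). Slfn10-ps (−0.05) and Slfn9 (0.15) were near 0.

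Among cytokines and their receptors 6 of 32 tested genes rose and 1 fell (median 0.21). That is 21.9%, beside 5.89% of all tested genes. Ifng, the type II interferon, made chiefly by T and NK cells, was 6.76, 7.56, 8.25 and 7.52 with DMSO and 10.41, 10.32, 10.75 and 10.05 with TCDD (2.86 ± 0.32, adjusted p = 9.1e-08). The DMSO cultures spread around the untreated mean of 7.61, and every TCDD culture lay above all of them. Beside this rise, the NK cell markers summed to 413 to 520 with DMSO and 432 to 534 with TCDD in linear signal, and the T cell markers to 2012 to 2619 and 2053 to 2457; Ncr1, Cd3d and Cd4 were below the limit for dim genes, while Cd8a (8.84 with DMSO), Cd8b1 (9.99), Cd2 (9.54) and Prf1 (8.56) lay above it. The part of such cells in the rise was not tested. Outside the list, Il3, a growth factor of blood progenitors, was 4.47, 5.30, 4.85 and 4.51 with DMSO and 7.65, 7.78, 8.06 and 7.67 with TCDD (3.01 ± 0.41, adjusted p = 2.6e-06). Its DMSO levels lay below the limit for dim genes, and the rise ran from 1.83 to 4.14 over the alternative settings. Csf2, which encodes GM-CSF, rose by 1.72 ± 0.36 (adjusted p = 0.0016) from 4.38 to 4.59 to 6.39, 7.03, 4.97 and 6.56; TCDD replicate 3 stayed near the DMSO level, and the call was lost without replicate 2 (1.47) or 4 (1.57). The Csf2 levels with DMSO were also below that limit, and its rise ran from 0.85 to 2.15 over those settings. Il5ra, a receptor chain for a B cell growth factor, rose by 0.98 ± 0.11 and Il12rb1 by 0.81 ± 0.14, and Ebi3, a cytokine subunit, was the gene that fell (−0.53 ± 0.13). The list had 7, 4, 5 and 5 genes higher without replicates 1 to 4 in turn. Il6 was 11, 10.63, 11.01 and 10.17 with DMSO and 10.53, 10.12, 10.07 and 9.60 with TCDD, lower on each day but overlapping between groups (−0.62 ± 0.30, adjusted p = 0.29).

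Of 22 tested genes of the TNF family 4 rose and 0 fell (median 0.23), which is 18.2%, beside 5.89% of all tested genes. Tnfsf14 (LIGHT), a co-stimulatory ligand, was 4.50, 4.44, 4.93 and 4.24 with DMSO and 7.17, 7.04, 7.36 and 7.13 with TCDD (2.65 ± 0.27, adjusted p = 1.6e-08); its untreated mean was higher than either, 9.50. Its DMSO levels lay below the limit for dim genes, and the rise ran from 1.43 to 4.11 over the alternative settings. Cd40, the receptor through which T cells help B cells, went from 11.09, 11.26, 11.62 and 11.27 to 12.14, 12.09, 12.09 and 11.91 (0.74 ± 0.09, adjusted p = 7.0e-07), with no overlap. Tnfrsf13c, the receptor for the survival factor BAFF, rose by 0.62 ± 0.11, a call lost without replicate 2 (0.51). Lta rose by 1.37, a call lost in 14 of 22 settings, among them each left-out day (1.28 to 1.49). With 1 day left out, 2 to 3 genes of the list were higher. Co-stimulatory and inhibitory receptors gave 5 of 20 (25%) higher and 0 lower (median 0.15). Of these Pdcd1 (PD-1) was 7.08, 7.14, 6.94 and 6.87 with DMSO and 8.01, 8.00, 8.02 and 7.83 with TCDD (0.96 ± 0.12, adjusted p = 3.8e-07). The other 4 (Cd244a by 1.28, Ctla4 by 0.77, Cd274 by 0.67 and Pdcd1lg2 by 0.56) each lost the call when 1 or more of the days was left out, so that 1 gene of the list passed without replicate 1 or 3 and 2 without replicate 2 or 4.

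Chemokines and homing receptors moved both ways, with 3 of 26 tested genes higher and 3 lower (median 0.02). That is 23.1%, beside 5.89% of all tested genes. Cxcr4, which keeps plasma cells in the bone marrow, was 10.35, 10.57, 10.13 and 10.44 with DMSO and 9.11, 8.89, 9.40 and 9.45 with TCDD, lower in each TCDD culture than in any DMSO culture (−1.16 ± 0.15, adjusted p = 1.2e-06). Gpr183, an oxysterol receptor that places activated B cells in the follicle, changed by −1.18 ± 0.19 (adjusted p = 3.4e-05) from 8.38 to 8.80 with DMSO to 7.19 to 7.66 with TCDD. Ccr1 rose by 0.88 ± 0.18, and Ccl17 by 1.27 ± 0.39, although the Ccl17 groups overlapped and its call was lost without replicate 1 (1.00), 2 (1.03) or 3 (1.45). Ccl5 was 8.89, 8.86, 9.34 and 8.59 with DMSO and 8.78, 9.05, 8.82 and 9.30 with TCDD, overlapping fully (0.07 ± 0.43). On the NF-kB and inflammatory list 4 of 26 genes rose and 1 fell (19.2%, median −0.09). Of those that rose Ptgs2, Cxcl10 and Cd40 are given above and Icam1, an adhesion molecule, rose by 0.36 ± 0.08, lost without replicate 1 (0.29). Of 19 Toll-like receptor genes 3 rose and 1 fell (21.1%, median 0.05). Tlr7, a sensor of single-stranded RNA, was 8.79, 8.58, 8.51 and 8.38 with DMSO and 9.52, 9.44, 9.74 and 9.81 with TCDD (1.06 ± 0.13, adjusted p = 3.8e-07). Irak3, an inhibitor of the same pathway, rose by 0.97 ± 0.14, and Tlr4, the LPS receptor, differed by −0.10. Ly86 also rose (0.44 to 0.56 over the alternative settings), a call lost without replicate 1 (0.47) or 2 (0.46). The gene that fell was Ly96 (−0.72 to −0.56 over those settings). Its call was lost without replicate 2 (−0.59) or 4 (−0.65), DMSO replicate 1 (−0.63) or 4 (−0.58), or TCDD replicate 2 (−0.58) or 3 (−0.57).

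Factors that hold the B cell state were in part higher with TCDD at 36 h. On the B cell identity list 6 of 16 tested genes rose and 0 fell (median 0.15), which is 37.5%, beside 5.89% of all tested genes. The list's mean level was 8.98 to 9.14 with DMSO and 9.43 to 9.66 with TCDD. Bach2, a repressor of Prdm1, was 4.10, 4.24, 4.18 and 5.42 with DMSO and 6.64, 6.63, 7.10 and 6.47 with TCDD (2.23 ± 0.39, adjusted p = 1.8e-04). Its DMSO levels lay below the limit for dim genes, and the rise ran from 1.10 to 4.11 over the alternative settings. DMSO replicate 4 stood above the other DMSO cultures and below every TCDD culture, which in turn lay below the untreated mean of 7.26. Of its other probe sets 1 gave 2.04 and 1 gave −0.04. Irf8, a B lineage and interferon-regulated factor, was 6.57, 7.09, 7.50 and 7.02 with DMSO and 8.58, 8.65, 9.08 and 8.51 with TCDD (1.66 ± 0.20, adjusted p = 2.1e-07). Spib, an Ets-family factor of B cells, went from 10.05, 9.82, 9.98 and 9.79 to 11.02, 10.92, 11.19 and 10.95 (1.11 ± 0.14, adjusted p = 1.0e-06), both below the untreated 12.82. Ebf1, an early B cell factor, rose by 0.97 ± 0.16, the kinase Blk by 1.00 ± 0.19 and the inhibitory receptor Cd72 by 0.67 ± 0.14; 5 of the 6 calls were made without replicate 1 and 6 without any other single day. Pax5 was dim and did not differ beyond its spread (−0.04 ± 0.30), Ets1 differed by −0.14 ± 0.23, and Bcl6 was below the limit for dim genes, at 5.23 with DMSO and 5.14 with TCDD. In B cell receptor signalling 2 of 16 genes rose and 0 fell (12.5%, beside 5.89% of all tested genes, median 0.07). They were Ptpn6 (SHP-1), a phosphatase that restrains the receptor, which went from 11.02, 11.27, 11.38 and 11.10 to 12.73, 12.95, 13.04 and 12.74 (1.67 ± 0.14, adjusted p = 2.5e-10), and Pik3cd, the lymphocyte PI3-kinase subunit (1.12 ± 0.19). Other Pik3cd probe sets ranged from −0.63 to 1.19, and with the mean of probe sets the gene no longer passed (0.39).

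Genes of the plasma cell programme moved the other way by smaller amounts. Of 16 tested genes 5 fell and 0 rose (median −0.28), which is 31.2%, beside 5.89% of all tested genes. The mean level of the list was 11.52 to 11.72 with DMSO and 11.24 to 11.49 with TCDD. Prdm1 (Blimp-1), the factor that ends the B cell programme, was 10.92, 11.03, 10.72 and 11.14 with DMSO and 10.32, 10.33, 10.30 and 10.57 with TCDD (−0.57 ± 0.14, adjusted p = 0.0063). Each TCDD culture lay below each DMSO culture, and both groups were far above the untreated mean of 8.13. The call was lost without replicate 1 (−0.56) or 2 (−0.53). Xbp1, the splicing-activated factor of the secretory state, was 13.75, 13.66, 13.69 and 13.65 with DMSO and 13.45, 13.34, 13.37 and 13.50 with TCDD (−0.27 ± 0.07, adjusted p = 0.0083), a small difference without overlap that no longer passed without replicate 2 (−0.26) or 3 (−0.26). Bhlha15 (Mist1), a factor that builds the secretory apparatus, was 10.41, 10.51, 10.28 and 10.66 against 9.43, 9.74, 9.73 and 10.12 (−0.71 ± 0.18, adjusted p = 0.014). It lost the call without replicate 1 (−0.62), 2 (−0.69) or 3 (−0.76), DMSO replicate 4 (−0.65) or TCDD replicate 1 (−0.60), and with the mean of probe sets (−0.51). Its other probe set gave −0.31 and did not pass. Fkbp11 (−0.44 ± 0.10) and Creld2 (−0.30 ± 0.08), both of the endoplasmic reticulum, made up the 5. Fkbp11 lost the call without replicate 2 (−0.45) or 3 (−0.36) and with the mean of probe sets (−0.42), and Creld2 without replicate 1 (−0.28), 2 (−0.29) or 4 (−0.29), DMSO replicate 1 (−0.28), 2 (−0.27) or 4 (−0.26), or TCDD replicate 3 (−0.24). The list count fell to 2 genes without replicate 1 or 3, 0 without replicate 2, 4 without replicate 4 and 3 without DMSO replicate 4, and it was 2 in a fit of only the 8 arrays and 3 with the mean of probe sets. Irf4 was lower on each day without passing (−0.28 ± 0.11, adjusted p = 0.15), and Sdc1 (CD138), a plasma cell surface marker, differed by −0.28 ± 0.25.

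None of 5 tested immunoglobulin genes passed the test by the probe set used for each (median −0.21). Ighm, the heavy chain of IgM, was 13.12, 13.15, 11.90 and 12.49 with DMSO and 12.25, 12.38, 11.47 and 11.94 with TCDD. It was lower with TCDD on every day, by 0.43 to 0.88, and the groups overlapped (−0.66 ± 0.27, adjusted p = 0.19; 4.3e-04 with the day as a block; −0.91 and adjusted p = 0.044 without DMSO replicate 3). Another Ighm probe set gave −0.82 and passed in a limma fit over all probe sets (adjusted p = 0.046). Its other probe sets above the limit for dim genes ranged from −0.67 to 0.32 and did not pass. Jchain, which joins IgM units, was 10.33, 10.18, 10.75 and 11.18 against 9.57, 9.41, 10.42 and 11.14, lower on each day and overlapping (−0.48 ± 0.33, adjusted p = 0.55). Igkc has no probe set with a single symbol and was not tested. The unfolded protein response and secretion list had 6 of 28 genes lower and 0 higher (21.4%, beside 5.89% of all tested genes, median −0.15). Sec24d, a coat protein of vesicles that leave the endoplasmic reticulum, was 11.81, 11.61, 11.59 and 11.72 with DMSO and 11.09, 10.98, 11.04 and 11.09 with TCDD (−0.63 ± 0.15, adjusted p = 0.0048). Sel1l, of the degradation complex, changed by −0.39 ± 0.10, Ero1b, an oxidase, by −0.36 ± 0.11, Dnajc3 by −0.32 ± 0.09 and Pdia6, a disulfide isomerase, by −0.30 ± 0.08. The chaperone Hspa5 was level (0.01). The count changed with the arrays used: 3 of the 28 genes passed without replicate 1, 0 without replicate 2, 2 without replicate 3 and 0 without replicate 4, 2 without TCDD replicate 3 or DMSO replicate 1, 2 with the mean of probe sets and 1 in a fit of only the 8 arrays. With 1 day left out the list median was −0.17 to −0.13. In the integrated stress response 1 of 16 genes (6.25%) passed, beside 5.89% of all tested genes, and the list median was −0.22. That gene was Ddit4, an inhibitor of mTOR, which changed by −0.80 ± 0.18. Its call was lost without replicate 2 (−0.66) and in a fit of only the 8 arrays.

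The largest fall was that of Cd36, a scavenger receptor that takes up fatty acids and oxidized lipoproteins. Its level was 12.37, 12.24, 11.61 and 12.26 with DMSO and 10.51, 9.89, 9.82 and 10.38 with TCDD, with no overlap and an untreated mean of 13.11 (−1.97 ± 0.23, 3.91-fold lower, adjusted p = 1.6e-07); 2 more probe sets of Cd36 gave −1.78 and −1.71. A pair of sialyltransferases were among the next largest falls. St8sia4, which makes polysialic acid, was 11.55, 11.67, 10.83 and 11.20 with DMSO and 9.68, 9.76, 9.28 and 9.60 with TCDD (−1.73 ± 0.18, adjusted p = 1.6e-08). St6gal1, which caps N-glycans with sialic acid, was 11.88, 12.22, 11.80 and 12.17 with DMSO and 10.21, 10.28, 10.32 and 10.93 with TCDD (−1.58 ± 0.21, adjusted p = 1.7e-06). TCDD replicate 4 was the least lowered for St6gal1, still below all DMSO cultures, which lay far above the untreated 8.67. The other 16 tested genes of the glycan branching and sialylation list did not pass, and the list median was −0.10. The share that passed was 11.1%, beside 5.89% of all tested genes.

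Of the 12 largest falls, Adm (adrenomedullin, a vasodilator peptide; −1.36 ± 0.15), Csn3 (a casein; −1.28 ± 0.24), Niban3 (−1.24 ± 0.13) and Wfdc21 (−1.19 ± 0.23) passed in every alternative run here. Niban3 was 10.17, 10.03, 9.96 and 10.12 with DMSO and 8.71, 8.61, 8.90 and 9.11 with TCDD. Others were less secure. Rgcc, a regulator of cell cycle and complement response, was 9.98, 9.42, 7.90 and 8.89 with DMSO and 7.49, 7.38, 7.10 and 7.39 with TCDD (−1.71 ± 0.47, adjusted p = 0.022), and the DMSO cultures alone spread from 7.90 to 9.98. Its call was lost without replicate 1 (−1.45), 2 (−1.60) or 4 (−1.78), DMSO replicate 1 (−1.40) or 2 (−1.59), or TCDD replicate 3 (−1.63). Tubb2b, a tubulin, changed by −1.28 ± 0.34, lost without replicate 2 (−1.21) or 3 (−1.40), DMSO replicate 1 (−1.11), or TCDD replicate 2 (−1.22) or 3 (−1.20). Cd37, a B cell tetraspanin, changed by −1.18 ± 0.34, lost without replicate 2 (−1.13), 3 (−1.25) or 4 (−1.10), DMSO replicate 2 (−1.16), 3 (−1.14) or 4 (−1.13), or TCDD replicate 1 (−1.13), 2 (−1.15) or 4 (−1.15). Ano1, a chloride channel, changed by −1.27 ± 0.39 with an adjusted p of 0.045 and failed without any 1 of the 4 days (−1.49 to −1.13).

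The list of myeloid-associated surface and granule genes gave 2 higher and 2 lower of 13 tested (30.8%, beside 5.89% of all tested genes, median −0.004). Besides Cd36, Cd300lf, an inhibitory receptor, fell by 0.57 on the log2 scale (−0.57 ± 0.11). Csf1r, the receptor of the macrophage growth factor, was 8.80, 8.49, 8.80 and 8.67 with DMSO and 10.36, 10.34, 10.24 and 10.16 with TCDD (1.58 ± 0.09, adjusted p = 5.6e-15), with groups far apart for the spread within each. Its other probe sets gave 1.08, which passed, and 0.57, which did not. Gzma, a protease of cytotoxic granules, began below the limit for dim genes, and its rise ran from 1.598 to 3.119 over the alternative settings. It was 4.99, 4.64, 5.81 and 5.95 with DMSO and 7.25, 7.52, 8.60 and 7.84 with TCDD (2.45 ± 0.31, adjusted p = 4.5e-07). Beside these, the 10 macrophage or monocyte markers summed to a linear signal of 1648 to 1874 with DMSO and 2478 to 2704 with TCDD; without Csf1r the sums were 1256 to 1443 and 1288 to 1455. Of them Csf1r and Adgre1 (0.82 ± 0.20) rose, and Cd68 (−0.25), Cd14 (0.43), Fcgr1 (0.23) and C1qb (0.04) did not pass. Fcgr1 (5.62 with DMSO and 5.85 with TCDD), Lyz2, Itgam, Mrc1 and C1qa were below the limit for dim genes in both groups.

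On the cell cycle lists 0% and 4.17% of genes passed, beside 5.89% of all tested genes. With the day as a block 1 of the G1/S genes and 4 of the mitotic genes were lower, where 1307 of all 11970 genes passed. None of 27 genes of the G1/S and DNA replication list passed the test (median 0.03) and 1 of 24 mitotic genes, the spindle assembly factor Tpx2 (−0.28 ± 0.08), fell (median −0.17); that call was lost without replicate 1 (−0.29), 2 (−0.33), 3 (−0.23) or 4 (−0.28), without DMSO replicate 3 (−0.21) or 4 (−0.30), without TCDD replicate 1 (−0.27), 2 (−0.30) or 4 (−0.27), and with the mean of probe sets (−0.16). Of CDK inhibitors and D cyclins 3 of 11 fell and 0 rose (27.3%, median −0.10). They were Ccng2, a cyclin linked to growth arrest (−0.81 ± 0.21), Cdkn2d (−0.49 ± 0.12) and Cdkn2c (−0.43 ± 0.13), and 3, 0, 1 and 1 of them passed without replicates 1 to 4 in turn. Myc was 12.91, 12.86, 12.72 and 12.80 with DMSO and 13, 13.10, 13.14 and 13.16 with TCDD. This small separation missed the threshold of limma's test (0.28 ± 0.09, adjusted p = 0.069, and 0.023 with the day as a block). On the list of MYC and ribosome biogenesis genes 1 of 22 (4.55%), Nop56, rose by 0.31 ± 0.08 (list median 0.12), and 4 rose with the day as a block. The Nop56 call was lost without replicate 1 (0.35), 2 (0.23) or 4 (0.33), without DMSO replicate 1 (0.30) or 2 (0.25), without TCDD replicate 2 (0.30) or 3 (0.29), and with the values as deposited (0.20). Among apoptosis regulators 3 of 20 fell and 0 rose (15%, median −0.19), with 2, 2, 1 and 2 lower without replicates 1 to 4 in turn and 1 with the mean of probe sets. Cflar (FLIP), an inhibitor of caspase-8, was 11.63, 11.54, 11.65 and 11.26 with DMSO and 10.78, 10.66, 10.62 and 10.32 with TCDD (−0.93 ± 0.13, adjusted p = 6.8e-06), although its other probe sets lay between −0.37 and 0.18 and the mean of probe sets gave −0.29. Birc2, another inhibitor of cell death, changed by −0.52 ± 0.12, lost without replicate 3 (−0.52), and Bbc3 (Puma), which promotes cell death, by −0.61 ± 0.19 with an adjusted p of 0.0498, lost in 17 of 23 settings, among them each left-out day (−0.63 to −0.58) and each left-out array (−0.66 to −0.57). Antigen presentation was uneven: 3 of 13 class I genes rose (23.1%, median 0.19) and 0 of 13 class II genes passed (median −0.01). The class I genes were Psmb10 (0.56 ± 0.13), Tapbp (0.47 ± 0.13) and Nlrc5 (0.45 ± 0.11), and the class I count was 0 without replicate 2 and 1 without replicate 4.

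On the remaining lists 4.55% to 9.52% of the tested members passed in the fit without the day, beside 5.89% of all tested genes. On the glycolysis and hypoxia list 1 of 21 rose and 1 fell (median −0.18), on cholesterol and lipid synthesis 0 and 1 of 22 (−0.09), on NRF2 and antioxidant genes 1 and 0 of 20 (0.01), on immediate early genes 2 and 0 of 22 (−0.12), on TGF-beta signalling 1 and 0 of 17 (−0.04) and on p53 targets 0 and 1 of 18 (−0.22). With the day as a block 1307 of all 11970 genes passed, and these counts were larger on most of the lists. Then 2 glycolysis and hypoxia genes rose and 5 fell, and 3 immediate early genes rose and 4 fell. The counts were 1 and 2 for cholesterol, 4 and 0 for NRF2, 1 and 0 for TGF-beta and 0 and 2 for p53. Within the glycolysis and hypoxia list, Ankrd37, Bnip3 and Pdk1, targets of the hypoxia factor, had the lowest values (−1.40, −1.24 and −1.15) and did not pass in the fit without the day. Their DMSO values differed by day: Bnip3 was 10.59, 9.85, 7.78 and 7.77 with DMSO and 8.45, 7.37, 7.66 and 7.57 with TCDD, so that the difference lay in days 1 and 2. These 3 genes were chosen after their values were seen.

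**Figure D4:**
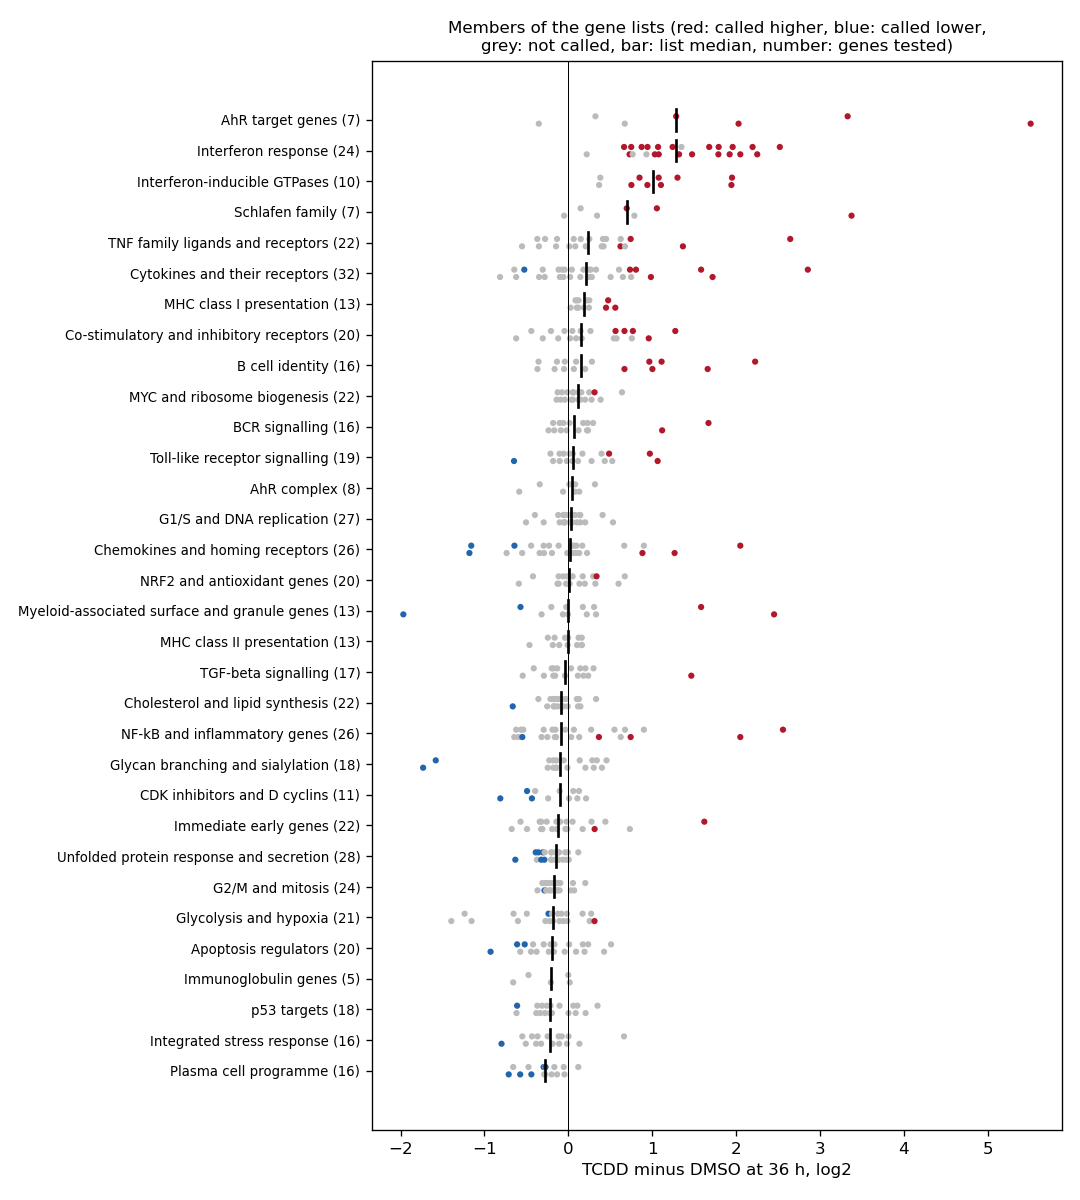
Each dot is a tested gene of 1 of 32 lists, placed by TCDD minus DMSO at 36 h in log2; red dots rose, blue dots fell, grey dots did not pass, black bars are list medians and the number after each name counts tested genes. AhR targets (median 1.29), interferon response (1.28), interferon-inducible GTPases (1.01) and Schlafen genes (0.70) stand at the top, and the plasma cell programme (−0.28) stands at the bottom with 5 blue dots and no red one.

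The same contrast was measured at 4 other times, each with its own DMSO arrays from the same 4 days. The calls at 36 h were shared most with the neighbouring times. Of the 705 genes, 382 also passed at 24 h (54.2% of the 36 h calls and 42.1% of the 907 at 24 h) and 427 at 48 h (60.6% and 40.3% of 1059), all of them in the same direction. At 8 h 168 of them passed, 156 in the same and 12 in the opposite direction, and at 12 h 280, 261 in the same and 19 in the opposite direction. The share of all tested genes that passed was 4.15% at 8 h (2.75% higher and 1.4% lower), 9.21% at 12 h (6.07% and 3.14%), 7.58% at 24 h (4.8% and 2.77%) and 8.85% at 48 h (4.31% and 4.54%). There were 111 genes that passed at all 5 times in 1 direction, 96 higher and 15 lower. Another 132 genes passed at 36 h only, 64 higher and 68 lower. None of these 132 differed from 24 h or from 48 h by a test of the difference, and 4 of them (Camsap1, Dcp1a, Ehd2 and Pogk, named after their values were seen) differed from the mean of the other 4 times.

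The tests of the difference itself gave few genes. The TCDD effect at 36 h differed from that at 24 h for 16 genes (0.134% of those tested; 4, or 0.0334%, more positive and 12, or 0.1%, more negative at 36 h; 959 at an unadjusted p below 0.05; 216 with the day as a block). It differed from that at 48 h for 0 genes by limma (579 at an unadjusted p below 0.05; 0 with the day as a block), and from the mean of the other 4 times for 53 (0.443%; 19, or 0.159%, more positive and 34, or 0.284%, more negative; 336 with the block). These counts changed with the days used: leaving out replicates 1 to 4 in turn left 1, 0, 0 and 1 gene against 24 h and 23, 1, 1 and 18 against the mean of the other times. Simulated 2-fold differences between the effects at 36 and 24 h were found in 70% of cases.

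The count of raised interferon response genes differed between times. Of the 24 genes 1 had risen at 8 h, 18 at 12 h, 24 at 24 h, 20 at 36 h and 10 at 48 h, with list medians of 0.41, 1.18, 2.18, 1.28 and 0.59. The effect at 36 h was smaller than at 24 h for 23 of the 24 genes (median difference −1.08), of which 1, Ifit3, passed the test of the difference (−1.70 ± 0.37, adjusted p = 0.045) and 10 did with the day as a block. Ifit3 did not pass that test when any 1 day was left out, so the 23 is a count of signs. Usp18, at 3.72 ± 0.28 at 24 h and 2.20 ± 0.28 at 36 h, differed by −1.53 ± 0.39 (adjusted p = 0.11; 0.034 with the block). Of the GTPases, 8 of 10 had a smaller effect at 36 h than at 24 h (median difference −0.32), and 9 of 10 had risen at 48 h. Acod1, which makes itaconate in activated macrophages, showed the largest fall in effect among the genes named by this test: 2.91 ± 0.32 at 24 h, 0.29 ± 0.32 at 36 h and −0.49 ± 0.32 at 48 h (36 h minus 24 h, −2.63 ± 0.45, adjusted p = 0.0082; 0.29 without replicate 2, −2.74, 0.15 without replicate 3, −2.30, and 0.061 without replicate 4, −2.72). Tnni2, a troponin of fast muscle, went the other way, from 0.09 ± 0.26 at 24 h to 1.95 ± 0.26 at 36 h and 1.63 ± 0.26 at 48 h (1.86 ± 0.37, adjusted p = 0.044; lost without replicate 1, 2.08, replicate 2, 1.78, or replicate 3, 1.46). At 36 h its other probe sets gave 0.26 and −0.07 and did not pass, and its change with the mean of probe sets was 0.71.

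Both Xbp1 and Prdm1 had effects of opposite sign early and late. The effect on Xbp1 was 0.46 ± 0.07 at 8 h, 0.59 ± 0.07 at 12 h, −0.03 ± 0.07 at 24 h, −0.27 ± 0.07 at 36 h and −0.39 ± 0.07 at 48 h, and 36 h differed from the mean of the other times by −0.43 ± 0.07 (adjusted p = 0.0045; lost without replicate 2, −0.41, or 3, −0.41). Prdm1 followed with 0.49, 0.35, −0.18, −0.57 and −0.07 at the 5 times, and 36 h, the lowest, differed from the mean of the others by −0.72 ± 0.15 (adjusted p = 0.014). Without replicate 2 the only gene of all those tested that still passed this test was Rhoq. St8sia4 went from 0.33 ± 0.18 at 8 h to −1.26 ± 0.18 at 24 h, −1.73 ± 0.18 at 36 h and −1.56 ± 0.18 at 48 h (difference −1.14 ± 0.20, adjusted p = 0.0045; lost without replicate 2, −1.09, and 3, −1.18). Rhoq, a small GTPase of membrane traffic, turned from 0.81 ± 0.10 at 8 h to −0.47 ± 0.10 at 36 h (difference −0.76 ± 0.11, adjusted p = 9.5e-04; lost without replicate 3, −0.73). Myc turned the opposite way, from −0.68 ± 0.09 at 8 h to 0.28 ± 0.09 at 36 h (difference 0.48 ± 0.10, adjusted p = 0.016), and Ccr7, a homing receptor for lymph nodes, from −1.06 ± 0.10 to 0.10 ± 0.10 (difference 0.61 ± 0.11, adjusted p = 0.0045; lost without replicate 2, 0.64, or 3, 0.56). Of the plasma cell list 3, 2, 1, 0 and 0 genes were higher and 1, 3, 1, 5 and 5 lower at 8, 12, 24, 36 and 48 h, and of the 28 secretion genes 0, 0, 0, 6 and 9 were lower. The B cell identity list had 2, 4, 6, 6 and 6 higher and 2, 2, 1, 0 and 1 lower, and the effect on Spib rose from −0.29 ± 0.14 at 8 h to 1.11 ± 0.14 at 36 h (difference from the mean of the other times 0.72 ± 0.16, adjusted p = 0.026).

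**Figure D5:**
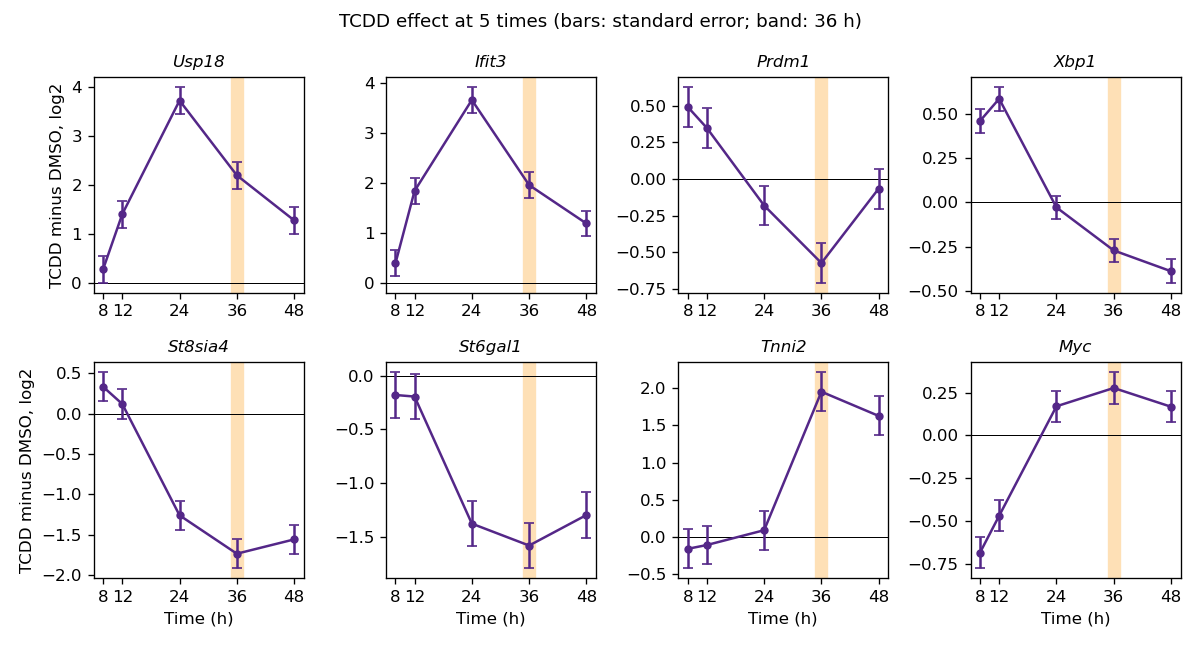
TCDD minus DMSO (log2) for 8 genes at 8, 12, 24, 36 and 48 h, each point with its standard error and 36 h marked by a band. Usp18 and Ifit3 peak at 24 h and are at 2.20 and 1.96 at 36 h; Prdm1 and Xbp1 start above 0 and are at −0.57 and −0.27 at 36 h; St8sia4 and St6gal1 reach their lowest points at 36 h, and Tnni2 and Myc their highest; the y axes differ in scale between panels.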

How the data were processed

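RNA of 44 CH12.LX cultures was hybridized to 1-colour Affymetrix mouse expression arrays with 45101 probe sets. The submitters' processing notes name GCOS 1.0. The deposited values were taken as linear intensities from their range and scaling, since their scale and algorithm, and how the authors handled background, stand in no label or header. Each column has a trimmed mean of 500, so the deposited values had been scaled per array.

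From these intensities, control probe sets (64) and those without exactly 1 gene symbol were left out, the columns were quantile normalized, and log2 of the value plus 16 was taken. The probe set with the highest mean stood for each gene (18193 genes). Genes whose highest group mean was below the median of 6.21 were dropped, which left 11970. The limit for dim genes in the text is that same value. Igkc has no probe set with a single symbol and is not analysed here.

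limma 3.58.1 (R 4.3.3) fitted 11 group means over all 44 arrays with eBayes. Contrasts were TCDD minus DMSO at each time, and the effect at 36 h minus that at 24 h, at 48 h and the mean of the other 4 times. P-values were adjusted by Benjamini-Hochberg over all tested genes. Replicate numbers mark a shared day per the labels, so they pair the cultures; TCDD and DMSO deviations from their group means at 36 h correlated at 0.31, 0.093, 0.15 and 0.15 for the same number, beside a median of -0.04 for different numbers. The fit without the day is the one reported, with the day as a block as an alternative.

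In values simulated from these arrays' levels and spread, the 36 h contrast recovered 48% of 1.5-fold and 92% of 2-fold changes and called 5 unchanged genes of 11970. The arrays give no read depth, and their number limits the precision. Alternatives were the block, a fit of only the arrays compared, values as deposited, pseudocounts of 1 and 64, no filter and a stricter one, the mean of probe sets, an intensity trend, and leaving out each day and each array.

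Named genes are 25 chosen by role; the 12 largest rises and 12 largest falls with the same sign in all 4 pairs; up to 5 called members per list; and up to 8 per test of a difference between times. Other list members are given as values, and exceptions are marked. The members, lists and named genes were chosen with earlier results of these data known. Promoters are RefSeq's (GRCm38.p6), searched with Python 3.11.15.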

Additional observations from a re-analysis of the deposited data

Results flagged for a closer look

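In 10 of 244 groups of 4 cultures tested, 1 culture stood apart from the other 3 by more than a gap test allows, where chance gives about 5 percent. Among DMSO cultures, Bach2 was at 5.42 in replicate 4 against 4.10 to 4.24 in the others, Tnni2 at 6.47 in replicate 4 against 5.20 to 5.30, Creld2 at 12.84 in replicate 3 against 13.14 to 13.18, and Iigp1 at 10.35 in replicate 1 against 10.16 to 10.18. Among TCDD cultures, replicate 4 was lower for Gbp7 (12.71 against 13.11 to 13.16), Il12rb1 (9.53 against 9.78 to 9.82) and Pdcd1 (7.83 against 8.00 to 8.02), and higher for Prdm1 (10.57 against 10.30 to 10.33) and St6gal1 (10.93 against 10.21 to 10.32). For all 5 of these genes TCDD replicate 4 was the culture nearest to the DMSO level. Cd37 was at 8.40 in TCDD replicate 3 against 7.90 to 7.96.

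The effect of TCDD differed between 36 h and 24 h, by limma's test of the difference, for Acod1 (-2.63), Nqo2 (-0.67), Fcgr4 (-0.70), Fbxl20 (-0.61), Gmppa (-0.46), Tnni2 (1.86), Xxylt1 (0.79) and Exosc2 (0.57), the 8 genes with the smallest p. Without 1 day, Acod1 still passed without replicate 1 and Tnni2 without replicate 4, and the other 6 passed in none of the 4 cases. Against the mean of the other times, the 8 genes with the smallest p were Rhoq (-0.76), Xbp1 (-0.43), St8sia4 (-1.14), Hmgb3 (-0.44), Irak1bp1 (0.55), Car12 (0.53), Ccr7 (0.61) and Ccdc137 (0.66). Without replicate 2 Rhoq alone of these passed, and without replicate 3 none of the 8 did.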

How the results depend on the processing

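The count of 705 genes at 36 h stayed between 545 and 910 with the values as deposited, other pseudocounts, no or a stricter filter, the mean of probe sets, an intensity trend or without 4 arrays of other times that stood apart, the last chosen after seeing the data. It was 437 in a fit of only the 8 arrays. Replicate numbers pair the cultures by day: with the replicate block it was 1307, and the differences in effect were 216 genes against 24 h and 336 against the mean of the other times. The share of higher genes was 59.3%, 65.2% as deposited and 67.5% with the mean of probe sets. Leaving out 1 day or array gave 282 to 627 genes, fewest without replicate 2. Against 24 h (16 genes) only the arrays compared gave 25, the same with the replicate block 306, no filter 2, a stricter filter 27, the mean of probe sets 1, and leaving out days or arrays 0 to 8. Against 48 h (0 genes) only the arrays compared with the replicate block gave 2, and leaving out days or arrays 0 to 1. Against the mean of the other times (53 genes) these were 80, 455, 34, 94, 49 and 1 to 63. Of 101 named genes that passed, 51 did so under every setting that tested them (45 were tested under all 23). The mean of probe sets turned Nqo2 (0.084), Exosc2 (-0.13) and Fbxl20 (-0.088). Leaving out days or arrays turned only genes near 0 that had not passed: Ahr (-0.089 to 0.098), Pax5 (-0.21 to 0.12), Ets1 (-0.36 to 0.11), Ccl5 (-0.15 to 0.26), Fcgr4 (-0.048 to 0.087) and Fbxl20 (-0.017 to 0.13). Counts did not always fall with fewer arrays. Without the 4 arrays that stood apart 910 genes passed at 36 h, and with only the arrays compared 25 passed against 24 h. The cause of these shifts was not tested. Genes near the floor of the array have little signal over background, which limits their fold changes.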
